A study of Rattus norvegicus with 16 samples.

Results

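The 10 genes described here belong to the interleukin-1 family and the inflammasome and were followed in rat hippocampus and blood 1 week after traumatic brain injury (TBI). They are the ligands Il1a, Il1b and Il18, the receptor antagonist Il1rn, the receptors Il1r1 and Il1r2, the inflammasome genes Nlrp3, Pycard and Casp1, and the mitochondrial receptor Nlrx1. The members were taken by gene symbol from 1 expression table per tissue, and a symbol with several rows was represented by its most abundant row. All 10 were found among 16405 named symbols in the CA1 table and 16395 in the white blood cell table. The only symbol with a second row was Nlrp3, in the white blood cell table.

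The study compared male Sprague Dawley rats after fluid percussion injury, in which a pulse of fluid strikes the exposed dura, with rats after sham surgery. The 4 groups were CA1 TBI, CA1 sham, WBC TBI and WBC sham, with 4 libraries each, where CA1 is the first region of the hippocampus proper and WBC are white blood cells isolated from blood. Learning was tested at 1 week and tissue was then taken. Poly-A RNA was enriched from about 1000 ng of total RNA and sequenced, and expression was given as FPKM, fragments scaled to transcript length and library size. The labels number the samples in each group without saying that equal numbers share a rat, nor that samples came from separate rats, so every p-value here reflects the spread among these samples and nothing further. Both tissues were sequenced in bulk, so fewer cells of a type and less RNA per cell cannot be told apart.

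IL-1α and IL-1β signal through the receptor IL-1R1, and IL-18 through its own receptor, toward NF-κB and inflammatory gene expression. The pathway is held in check at several points: IL-1Ra, the product of Il1rn, occupies IL-1R1 without signalling, and IL-1R2 binds the ligand as a decoy. IL-1β and IL-18 are made as inactive precursors and are cut by caspase-1 after the sensor NLRP3 assembles with the adaptor ASC, the product of Pycard, into an inflammasome. NLRX1 is a relative of NLRP3 located at mitochondria and is known mainly as a negative regulator of innate immune signalling. In brain the pathway is studied chiefly in microglia, and in blood chiefly in neutrophils and monocytes.

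The start-site sequences of 4 members are shown here: Nlrx1 and Il1r1, the genes whose TBI and sham libraries separated in CA1, and Il1b and Nlrp3, the ligand and the sensor at the centre of the pathway. Each runs from 250 bases before to 50 after the start given by RefSeq in build GRCr8, on the strand of the gene. The positions are chr8:53503244-53503543 on the minus strand for Nlrx1, chr9:50034133-50034432 on the plus strand for Il1r1, chr3:137036532-137036831 on the minus strand for Il1b, and chr10:44827848-44828147 on the plus strand for Nlrp3. Capitals mark matches, on either strand, to a TATA box (TATAAA), a GC box (GGGCGG), a κB-like motif (GGG and CC with 5 bases of any kind between them) and the PU.1 core (GAGGAA).
Nlrx1: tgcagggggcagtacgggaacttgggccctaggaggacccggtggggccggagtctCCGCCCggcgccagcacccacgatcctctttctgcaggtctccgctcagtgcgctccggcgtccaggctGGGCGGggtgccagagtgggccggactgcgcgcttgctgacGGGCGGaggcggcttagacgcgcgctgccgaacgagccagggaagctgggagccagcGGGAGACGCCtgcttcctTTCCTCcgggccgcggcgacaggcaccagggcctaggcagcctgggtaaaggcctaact
Il1r1: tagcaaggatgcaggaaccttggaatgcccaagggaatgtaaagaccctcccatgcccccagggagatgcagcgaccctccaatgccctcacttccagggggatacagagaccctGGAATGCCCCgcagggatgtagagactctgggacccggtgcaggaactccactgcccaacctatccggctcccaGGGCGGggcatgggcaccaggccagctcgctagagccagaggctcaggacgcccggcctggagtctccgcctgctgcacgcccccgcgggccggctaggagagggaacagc
Il1b: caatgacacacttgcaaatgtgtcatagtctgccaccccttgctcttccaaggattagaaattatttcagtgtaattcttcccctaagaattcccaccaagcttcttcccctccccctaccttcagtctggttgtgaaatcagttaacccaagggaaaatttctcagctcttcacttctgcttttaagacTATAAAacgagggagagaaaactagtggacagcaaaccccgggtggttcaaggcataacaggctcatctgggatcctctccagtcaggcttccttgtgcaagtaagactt
Nlrp3: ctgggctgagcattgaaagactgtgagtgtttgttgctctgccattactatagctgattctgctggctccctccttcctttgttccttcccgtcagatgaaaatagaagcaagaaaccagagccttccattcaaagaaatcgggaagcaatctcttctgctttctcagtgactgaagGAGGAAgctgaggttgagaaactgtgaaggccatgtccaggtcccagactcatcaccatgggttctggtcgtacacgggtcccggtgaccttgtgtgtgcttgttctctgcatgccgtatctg
The Nlrx1 stretch had 3 GC boxes, 29 CpG dinucleotides and 71% G and C, against a median of 7 CpG and 51.7% over 33469 rat promoters of the same length. The Il1r1 stretch had 1 GC box, 13 CpG and 65.3% G and C. That of Il1b had a TATA box whose first base lay 60 bases before the start, 2 CpG and 45.3% G and C, and that of Nlrp3 had neither a TATA box nor a GC box. RefSeq entries were matched for 9 of the 10 members, all but Il1r2. Among those 9, a TATA box was found in 3, a GC box in 4, the κB-like motif in 5 and the PU.1 core in 4. Over all promoters the shares were 14.2%, 33.1%, 47.3% and 27.6% in the same order. The printed matches do not overlap one another, and a match describes the letters only.

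In CA1 the receptor and inflammasome genes were low and the classical ligands almost undetected. Averaged over the 8 CA1 libraries, FPKM was 4.07 for Nlrx1, 2.83 for Pycard, 1.81 for Il18, 1.42 for Casp1 and 1.34 for Il1r1. Below 1 FPKM stood Nlrp3 at 0.617, Il1rn at 0.271, Il1b at 0.123, Il1a at 0.119 and Il1r2 at 0.0173. Neighbours in this order overlapped in their library ranges except at 2 steps, from Il1r1 to Nlrp3 and from Nlrp3 to Il1rn. Blood had another order. Pycard averaged 114 FPKM, Il1b 53.9, Casp1 35.2 and Il1rn 24.0, followed by Il18 at 5.21, Nlrp3 at 4.67, Nlrx1 at 3.58 and Il1r2 at 2.71. Il1r1, at 0.0993, and Il1a, at 0.0362, were barely detected there. Ranges of neighbours were separate at the steps from Casp1 to Il1rn, from Il1rn to Il18 and from Il1r2 to Il1r1. The receptor pair thus stood in opposite order: the signalling receptor above the decoy in every CA1 library, and the decoy above the signalling receptor in every WBC library. The 2 tables were normalized separately, so levels were not tested between tissues.

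**Figure D1:**
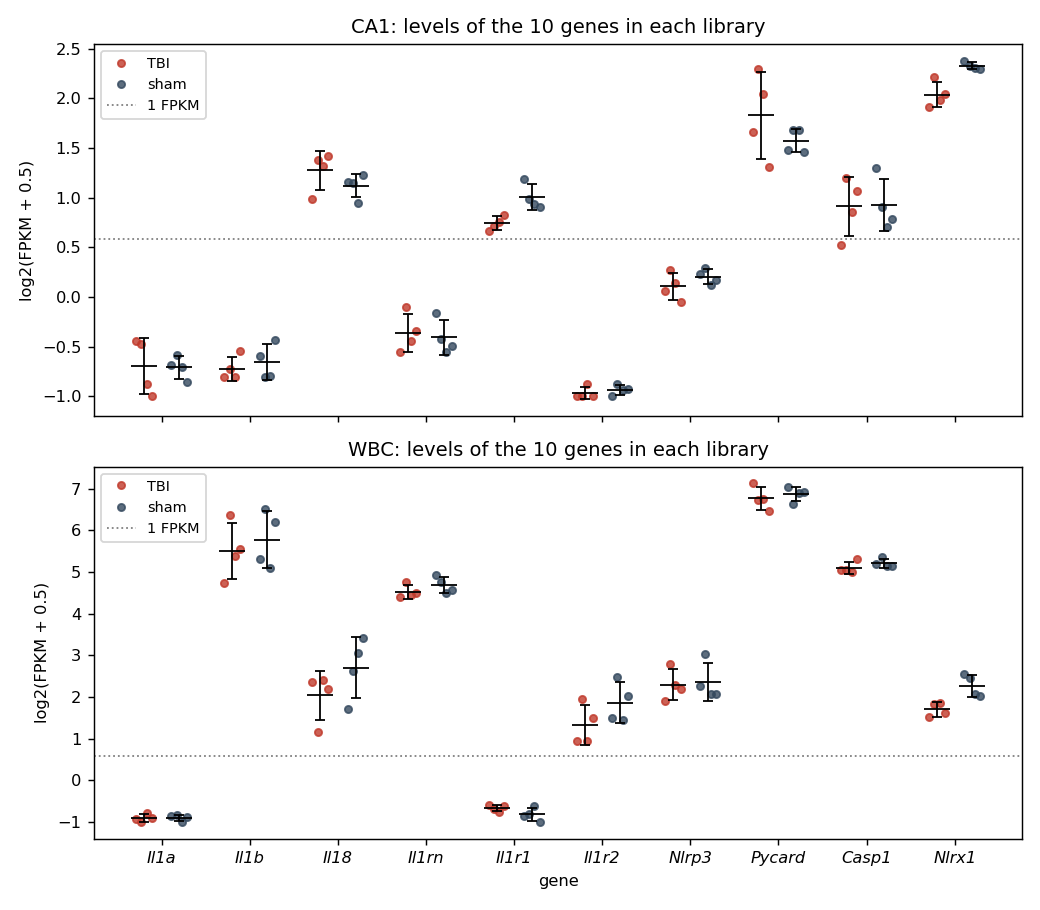
Level of each of the 10 genes in each library, as log2(FPKM + 0.5) on the vertical axis, for CA1 above and WBC below, with TBI left of sham. Points are libraries, and the bars are the mean and SD of 4. In CA1 the TBI points of Nlrx1 and Il1r1 lie under the sham points, and in WBC those of Nlrx1 do.

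The tissues carried their own markers. Of 7 pyramidal neuron markers all were above the filter in CA1, with a sum of 4772 to 5232 FPKM in TBI and 4479 to 6469 in sham. In WBC that sum was 8.75 to 18.0 in TBI and 7.03 to 11.7 in sham. The WBC libraries held neutrophil, monocyte, T, B and natural killer cell markers, and also strong erythroid and platelet signal. Lymphocyte and platelet markers were low in CA1: the 7 B cell markers summed to 0.198 to 0.749 FPKM in TBI and 0.296 to 0.399 in sham, and the 10 T cell markers to 5.80 to 8.51 in TBI and 5.68 to 9.68 in sham. The 5 platelet markers summed to 3.74 to 6.82 in TBI and 3.11 to 6.31 in sham. Erythroid markers were higher there, at 168 to 195 in TBI and 179 to 211 in sham, of which Ca2 made up 148 ± 13.6 in TBI and 157 ± 20.3 in sham. Choroid plexus markers in CA1 lay between 180 and 2738 FPKM in TBI and between 19.5 and 1312 in sham. On the first principal component, WBC TBI 1 stood apart from the other WBC libraries, and CA1 sham 1 and CA1 TBI 1 from the other CA1 libraries. Library depth is unknown, because FPKM holds no fragment counts.

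Nlrx1 was the member with the lowest p in each tissue, and in both the TBI libraries stood below all sham libraries. In CA1 it measured 3.26, 4.14, 3.46 and 3.62 FPKM in TBI libraries 1 to 4, against 4.69, 4.51, 4.45 and 4.42 in sham libraries 1 to 4. The highest TBI library, number 2, stayed under the lowest sham library. The means were 3.62 ± 0.379 in TBI and 4.52 ± 0.121 in sham (SD, n = 4 each), a ratio of 0.801. On the log2(FPKM + 0.5) scale, which understates the change of low genes, TBI minus sham was -0.29 ± 0.08 (SE). It did not pass after adjustment over all 14637 rows (limma adjusted p = 0.891). An exact 2-sided permutation test gave p = 0.0286, the smallest that 4 against 4 libraries allow.

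The difference in Nlrx1 was wider in white blood cells. The TBI libraries held 2.34, 3.08, 3.09 and 2.54 FPKM, and the sham libraries 5.35, 4.94, 3.73 and 3.54. Sham 1 and 2 were the high libraries, and again no TBI library reached the lowest sham library. The means were 2.76 ± 0.382 in TBI and 4.39 ± 0.893 in sham, a ratio of 0.630. The log2 difference was -0.57 ± 0.15, which did not pass after adjustment over 13413 rows (limma p = 0.00560, adjusted p = 0.140; exact permutation p = 0.0286). By its p-value Nlrx1 ranked 85 of 14637 rows in CA1 and 535 of 13413 in WBC.

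Whether the injury effect on Nlrx1 differed between the tissues was not resolved. WBC minus CA1 came to -0.28 ± 0.17 (limma interaction, adjusted p = 0.377). Without WBC TBI 1, the library that stood apart, the WBC difference was -0.51. Without CA1 sham 1 the CA1 difference was -0.27, and without CA1 TBI 1 it was -0.25.

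Markers of several cell types also differed in mean between TBI and sham, some in the direction of Nlrx1 and some against it. In CA1 all 9 endothelial markers lay below 0, 4 of them at an unadjusted p under 0.05. Of all CA1 rows, 2.6% were lower at that p. In CA1 all 7 pyramidal neuron markers lay below 0, with a median of -0.18, 1 of them, Rbfox3, at an unadjusted p under 0.05. It measured 92.7 ± 8.86 FPKM in TBI and 105 ± 2.91 in sham (limma adjusted p = 0.891). Its groups were separate, as were those of 1.6% of all CA1 rows with TBI lower. The sums of that list overlapped, as given above, and the lowest, 4479 FPKM, was in sham 1, where Nlrx1 was highest. No pyramidal marker was at 0 in every CA1 library. In WBC the changes were wider. The 9 erythroid markers measured were all lower in TBI, 8 of them at an unadjusted p under 0.05, where 12.5% of all WBC rows were. The erythroid markers summed to 4282 to 10361 FPKM in TBI against 10444 to 16514 in sham. All 5 platelet markers were lower too, 4 at that p, with sums of 1977 to 5756 in TBI and 6253 to 8614 in sham. Natural killer cell markers were higher in 8 of 8 tested, 4 at that p, where 7.82% of all WBC rows were higher. These markers had a median of 0.39 and sums of 306 to 502 in TBI and 271 to 341 in sham. Among them Gzmb measured 4.55 ± 0.344 in TBI and 2.56 ± 0.928 in sham, with separate groups (limma adjusted p = 0.138). Of all WBC rows, 5.61% had separate groups with TBI higher. All 7 B cell markers lay below 0, none at that p, with a median of -0.16 and sums of 503 to 932 in TBI and 785 to 1023 in sham. No marker of these 4 lists was at 0 in every WBC library. The part of these markers in the Nlrx1 differences was not tested.

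**Figure D2:**
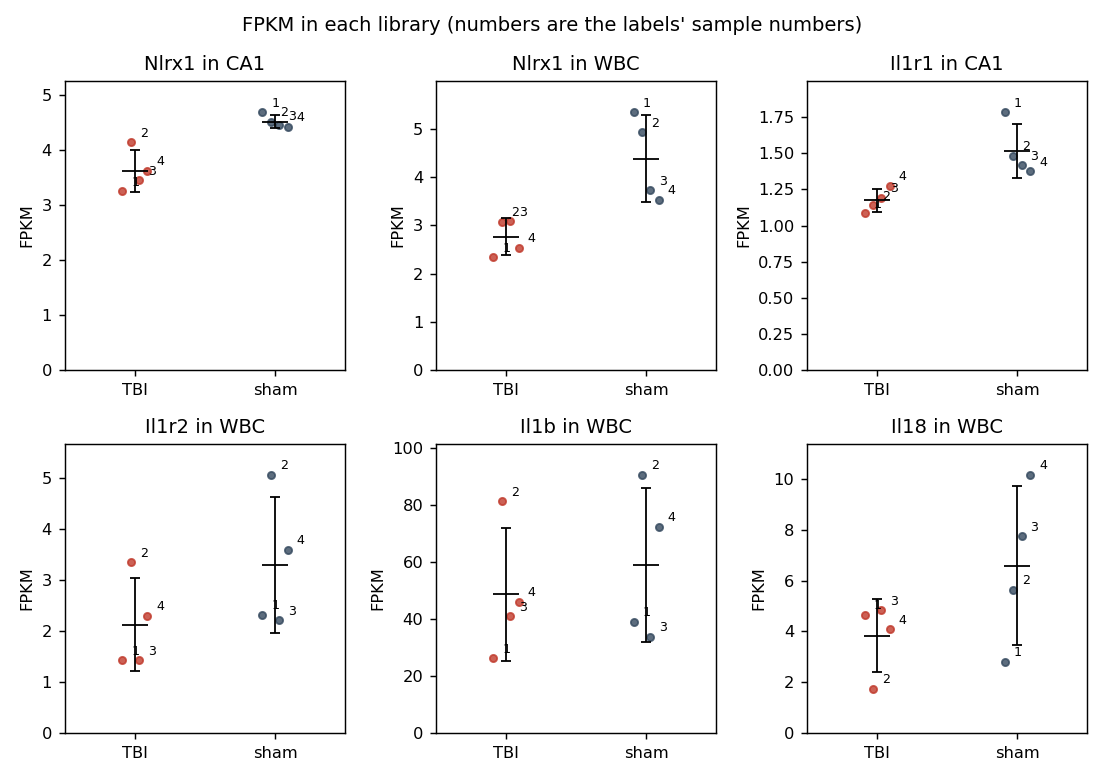
FPKM in each library for 6 gene and tissue pairs, TBI left of sham, each point numbered as in the labels, with mean and SD of 4. Nlrx1 separates by group in both tissues and Il1r1 in CA1. Il1r2, Il1b and Il18 in WBC overlap, with WBC sham 2 highest for Il1r2 and Il1b.

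Among the receptors, Il1r1, which carries the IL-1 signal into the cell, was lower in injured CA1. It measured 1.09, 1.14, 1.19 and 1.27 FPKM in TBI libraries 1 to 4, against 1.78, 1.48, 1.42 and 1.38 in sham libraries 1 to 4. The groups did not overlap, although the gap between TBI 4 and sham 4 was small. The means were 1.17 ± 0.0807 in TBI and 1.51 ± 0.185 in sham, and the log2 difference was -0.26 ± 0.10 (limma p = 0.0301, adjusted p = 0.891; exact permutation p = 0.0286). Sham 1 was the highest library, and without it the log2 difference was -0.20. Without TBI 1 it was -0.24.

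Endothelial markers shared the direction of the Il1r1 difference in CA1. All 9 were lower in TBI, and none passed after adjustment. At an unadjusted p under 0.05, 4 of them were lower, where 2.6% of all CA1 rows were. The endothelial sum was 124, 115, 117 and 124 FPKM in the TBI libraries. It was 179, 130.5, 118 and 138 in the sham libraries, with sham 1 highest as for Il1r1. Sham 3 lay within the TBI range of that sum, whereas the Il1r1 groups did not overlap. No endothelial marker was at 0 in every CA1 library. Centred on its mean over the 8 CA1 libraries, Il1r1 lay at a root mean square distance of 0.11 log2 units from the endothelial sum. It lay 0.10 from Nlrx1, whose groups were also separate, and 0.14 from the erythroid sum. The distance is not scaled to a gene's own spread. The pyramidal neuron markers, all 7 below 0, shared only the direction of the group means. Their sum was lowest in sham 1, at 4479 FPKM, where Il1r1 was highest. The part of either list in the Il1r1 difference was not tested.

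Il1r1 was almost absent from white blood cells, at 0.161, 0.118, 0.0890 and 0.154 FPKM in TBI and 0.0503, 0.0658, 0.156 and 0 in sham. The groups overlapped and the gene lay under the filter of a mean of 1 FPKM, at a log2 difference of 0.16 ± 0.09 when no filter was set. Without the filter, the injury effects of the tissues on Il1r1 differed by 0.42 ± 0.12, which did not pass (limma adjusted p = 0.128).

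The decoy receptor Il1r2 had the reverse distribution. In CA1 it was listed at 0 in TBI libraries 1, 2 and 4 and in sham library 1, and at 0.0448 FPKM in TBI 3. Sham libraries 2 to 4 held 0.0447, 0.0236 and 0.0252. Blood levels were measurable, at 1.42, 3.34, 1.42 and 2.30 FPKM in TBI and 2.31, 5.06, 2.21 and 3.59 in sham. The means there were 2.12 ± 0.913 in TBI and 3.29 ± 1.34 in sham. The groups overlapped and the log2 difference, -0.53 ± 0.30, did not pass (limma adjusted p = 0.363; exact permutation p = 0.143). It was -0.33 without sham 2, the highest library, and -0.74 without TBI 2.

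Set against each other in the same library, decoy and signalling receptor gave a log2 ratio of 1.99 ± 0.486 in WBC TBI and 2.68 ± 0.581 in WBC sham. The difference of -0.69 was not resolved (exact permutation p = 0.143, 0.286 adjusted over 4 ratios). Il1r1 was so low there that the 0.5 FPKM added to both genes set most of the denominator, and the ratio follows Il1r2. With 0.1 added the difference was -1.14 (exact permutation p = 0.114). The plain FPKM ratio ran from 8.88 to 28.3 in WBC TBI and from 14.2 to 76.9 in WBC sham 1 to 3, and had no value in sham 4, where Il1r1 was listed at 0. In CA1 the ratio was -1.71 ± 0.0846 in TBI and -1.94 ± 0.168 in sham, higher in all 4 TBI libraries (exact permutation p = 0.0286, 0.114 adjusted over the 4). With Il1r2 at or near 0 and 0.5 FPKM added to both genes, this CA1 ratio follows Il1r1 alone, and with 0.1 added it lost its separation (0.18, exact permutation p = 0.543).

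The ligands did not separate by group in either tissue. Il1b in CA1 measured 0.0719, 0.106, 0.0711 and 0.183 FPKM in TBI and 0.164, 0.0711, 0.0749 and 0.240 in sham. Both groups held libraries near 0.07, and the highest value was in sham 4. Il1b was the second most abundant member in WBC, where it measured 26.3, 81.5, 40.9 and 46.1 FPKM in TBI and 39.1, 90.8, 33.8 and 72.4 in sham. The means were 48.7 ± 23.4 in TBI and 59.0 ± 27.2 in sham, with sham 2 and TBI 2 the highest libraries. The log2 difference of -0.27 ± 0.41 was smaller than its error (limma adjusted p = 0.755; exact permutation p = 0.629). It was -0.02 without TBI 1 and -0.56 without TBI 2.

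Il1a, the ligand that is active without cleavage, was near 0 in both tissues. In CA1 it measured 0.236, 0.221, 0.0457 and 0 FPKM in TBI and 0.123, 0.167, 0.112 and 0.0515 in sham, so that the TBI libraries held both the highest values and a 0. No WBC library exceeded 0.0802 FPKM, and 1 library of each group was listed at 0. In the rat genome Il1a and Il1b are neighbours.

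Il18 was the only ligand above 1 FPKM in both tissues, and its mean difference had opposite signs in them. In CA1 it measured 1.48, 2.09, 1.997 and 2.18 FPKM in TBI and 1.73, 1.71, 1.43 and 1.84 in sham. TBI 1 was among the low libraries and the other 3 TBI libraries exceeded every sham library (log2 0.16 ± 0.12, limma adjusted p = 0.891; exact permutation p = 0.229). In CA1 Il18 lay at a root mean square distance of 0.084 log2 units from the microglial sum. It lay 0.095 from the monocyte and macrophage sum. These sums lay only 0.040 from each other and their lists share a marker, so the distances are not separate observations. The part of these markers was not tested. The WBC values of Il18 were 4.65, 1.74, 4.84 and 4.09 FPKM in TBI and 2.80, 5.65, 7.74 and 10.2 in sham. Sham 2 to 4 exceeded every TBI library, while sham 1 lay under 3 of them. The means were 3.83 ± 1.43 in TBI and 6.59 ± 3.13 in sham (log2 -0.67 ± 0.40, limma adjusted p = 0.389; exact permutation p = 0.229). Without TBI 2, the lowest library, it was -0.37. The difference between the tissues, WBC minus CA1, was -0.82 ± 0.43 and did not pass (limma interaction, adjusted p = 0.313).

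The antagonist Il1rn also overlapped between groups. In CA1 it measured 0.180, 0.433, 0.238 and 0.286 FPKM in TBI and 0.395, 0.247, 0.180 and 0.210 in sham. WBC libraries held 20.4, 26.6, 21.4 and 21.9 in TBI and 29.7, 26.6, 22.0 and 23.3 in sham, where sham 1 was highest and TBI 2 equalled sham 2 to the digits given. The WBC log2 difference was -0.16 ± 0.12 (limma adjusted p = 0.475). Relative to Il1b, its competitor for IL-1R1, the antagonist stood at a log2 ratio of -0.98 ± 0.512 in WBC TBI and -1.09 ± 0.690 in WBC sham. That difference of 0.11 was smaller than the spread (exact permutation p = 0.771). In CA1 the ratio was 0.36 ± 0.188 in TBI and 0.25 ± 0.222 in sham (exact permutation p = 0.514). The antagonist thus exceeded the ligand in 7 of the 8 CA1 libraries, sham 4 being the exception, and the ligand exceeded the antagonist in all 8 WBC libraries. In CA1 both genes lay below the 0.5 FPKM added to each in every library. The CA1 order and ratio therefore rest on values near 0.

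The inflammasome genes proper did not separate. The sensor Nlrp3 in CA1 measured 0.546, 0.711, 0.601 and 0.466 FPKM in TBI and 0.676, 0.725, 0.589 and 0.626 in sham, overlapping throughout. In white blood cells its row measured 3.23, 6.42, 4.36 and 4.07 in TBI and 4.28, 7.62, 3.68 and 3.72 in sham, with library 2 of each group highest. The log2 difference was -0.06 ± 0.26 (limma adjusted p = 0.916). A second row of that symbol measured 2.29, 4.72, 3.25 and 4.203 in TBI and 1.55, 5.87, 2.17 and 4.95 in sham, at a log2 difference of 0.11 ± 0.38, so fragments of the gene may be divided between the rows.

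Pycard, the adaptor, was the most variable of the members above the filter in CA1. It measured 2.65, 4.42, 3.64 and 1.98 FPKM in TBI and 2.29, 2.71, 2.70 and 2.25 in sham. TBI 2 and 3 lay above all sham libraries and TBI 4 below all of them, and the SD was 1.08 in TBI and 0.248 in sham (log2 0.25 ± 0.20, limma adjusted p = 0.891; exact permutation p = 0.343). The difference was 0.097 without TBI 2 and 0.43 without TBI 4. In white blood cells it measured 139, 106, 107 and 87.2 in TBI and 132, 99.1, 119 and 121 in sham (log2 -0.11 ± 0.15, limma adjusted p = 0.721). The highest and the lowest of those 8 values were both TBI libraries.

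Casp1, the protease, measured 0.939, 1.80, 1.30 and 1.60 FPKM in CA1 TBI and 1.96, 1.38, 1.13 and 1.22 in CA1 sham. The means, 1.41 ± 0.373 in TBI and 1.42 ± 0.371 in sham, were nearly equal (limma adjusted p = 0.992). In white blood cells it was the steadiest member above the filter, at 32.5, 32.3, 31.6 and 39.1 in TBI and 36.0, 40.6, 34.6 and 35.0 in sham. TBI 1 to 3 lay under every sham library and TBI 4 over 3 of them (log2 -0.11 ± 0.09, limma adjusted p = 0.537; exact permutation p = 0.314).

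Across the members, 5 of 10 passed the filter in CA1 and 8 of 10 in WBC, and none was called in either tissue at an adjusted p of 0.05. Of all rows, limma called 0.00683% in CA1, which is 1 row, and 0% in WBC. At an unadjusted p under 0.05, 2 of the 5 CA1 members (Nlrx1 and Il1r1) were lower in TBI, where 2.6% of all rows were. The same 2 had groups that did not overlap with TBI lower, against 1.6% of all rows, or 2.88% in either direction. No member was higher in TBI by either criterion, where 2.54% and 1.28% of all CA1 rows were. In WBC 1 of 8 members, Nlrx1, met each criterion, where 12.5% of all rows had p under 0.05 with TBI lower and 8.63% had separate groups with TBI lower. With TBI higher, no WBC member met either criterion, against 7.82% and 5.61% of all rows, and separate groups in either direction made up 14.2%. Unadjusted p under 0.05 in either direction was met by 5.14% of all rows in CA1 and 20.3% in WBC. The WBC count of members is thus close to that of all rows, and the CA1 count rests on 2 genes.

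The median log2 difference over the 8 WBC members was -0.22, against -0.0031 over all rows, and over the 5 CA1 members it was -0.011, against -0.0090. All 8 WBC members lay below 0, as did 50.4% of all WBC rows, but Casp1 and Pycard lay above 0 after quantile normalization, at 0.026 and 0.18, and Nlrp3 did with sample weights, at 0.074. In CA1, 3 of the 5 lay below 0, where 53.3% of rows did. Of the 4 members tested between tissues none was called, where 0.41% of 7570 genes were. None had an unadjusted p under 0.05 there, where 19.7% of those genes did.

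**Figure D3:**
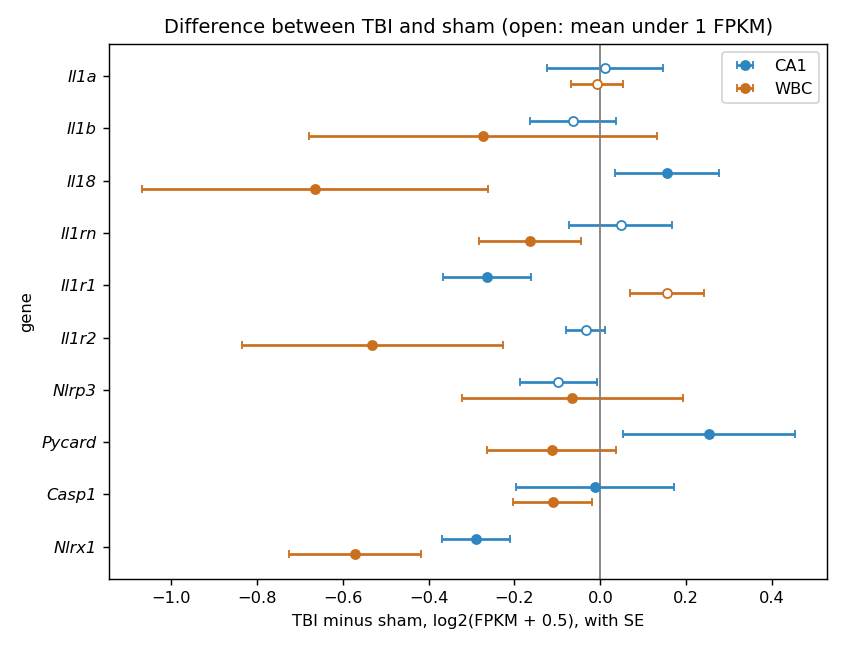
TBI minus sham for each gene on the log2(FPKM + 0.5) scale (horizontal axis) with its SE, for CA1 and WBC. Open points are genes with a mean under 1 FPKM. Nlrx1 lies left of 0 in both tissues, at -0.29 in CA1 and -0.57 in WBC, and the WBC error bars of Il1b, Il18, Il1r2 and Nlrp3 are the widest.

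A few members peaked in the same white blood cell libraries. Il1b, Il1r2 and Nlrp3 were each highest in sham 2, and in TBI each was highest in TBI 2. They parted in sham 4, where Il1b and Il1r2 lay 0.55 and 0.44 log2 units above their means and Nlrp3 lay at -0.25. Among the members Il1b lay closest to Il1r2, at a root mean square distance of 0.26 log2 units over the 8 libraries. The summed neutrophil markers had a similar course, at 646, 1551, 797 and 960 FPKM in TBI and 1210, 1397, 989 and 1199 in sham. That sum lay 0.25 from Il1r2, 0.27 from Nlrp3 and 0.34 from Il1b. Nlrp3 lay as near to the monocyte and macrophage sum, at 0.26, and nearer to Il1rn (0.29) and Casp1 (0.33) than to Il1b (0.38). The distance is not scaled to a gene's own spread. A steady gene such as Casp1 (SD 0.13 log2 units) can therefore lie nearer than a variable one such as Il1b (SD 0.64), without following the same course. The monocyte and macrophage sum lay farther from Il1r2 (0.49) and Il1b (0.57). The neutrophil sums overlapped between groups, and of 14 neutrophil markers 10 were tested, 4 above 0 and 6 below. None of the 14 was at 0 in every WBC library. Monocyte and macrophage markers summed to 707 to 1073 in TBI and 716 to 1100 in sham. These distances describe 8 libraries whose cell marker sums differed from one another, and the part of the makeup of cells in the members' values was not tested.

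Il18 varied differently in white blood cells. It was lowest in TBI 2 and highest in sham 4, and lay 0.92 from Il1b and 0.86 from the neutrophil sum. It was the WBC member with the largest SD over the libraries, 0.71 log2 units. The genes closest to it, of 8644 named genes compared, were Ctdspl2 at 0.36, Nipsnap3b at 0.41 and Ppapdc3 at 0.41, where the median gene lay at 0.69. In CA1 the most variable member was Pycard, with an SD of 0.33. Its closest genes of 10253 were Tnfsf15 at 0.15, Galnt13 at 0.16 and Gpr137c at 0.16, against a median of 0.33.

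**Figure D4:**
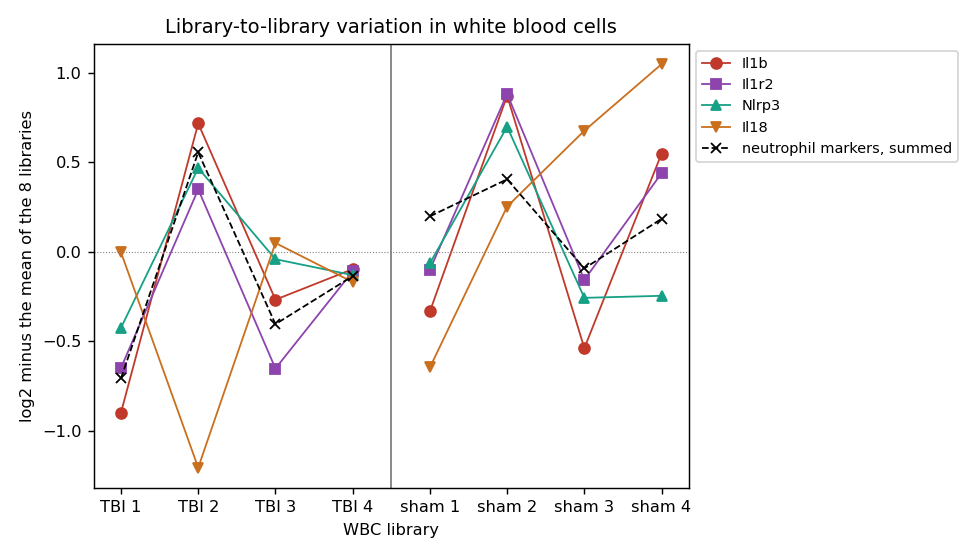
Il1b, Il1r2, Nlrp3 and Il18 in each WBC library, as log2 values minus the gene's mean over the 8 libraries, with the summed neutrophil markers, TBI left of sham. Lines only join the points of 1 gene. The first 3 genes peak in library 2 of each group, where Il18 is lowest among TBI libraries.

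In CA1 the summed myeloid markers overlapped between groups, while single markers went in both directions. Of 12 microglial markers 7 lay above 0 and 5 below, and their sum was 254 to 319 FPKM in TBI and 259 to 297 in sham. The complement gene C1qb had an unadjusted p under 0.05, at 34.3 ± 3.28 in TBI and 29.8 ± 2.17 in sham (limma adjusted p = 0.891). C1qa, C1qc and Tyrobp lay above 0 by 0.19, 0.22 and 0.26, and the chemokine receptor Cx3cr1 below 0, at -0.18. Neutrophil markers summed to 4.37 to 7.03 in TBI and 4.37 to 7.78 in sham, with Elane and Ltf at 0 in every CA1 library. Another, Csf3r, under the filter, had separate groups, at 0.395 ± 0.0466 in TBI and 0.535 ± 0.0424 in sham. Monocyte and macrophage markers summed to 55.4 to 73.1 in TBI and 57.2 to 66.6 in sham.

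The wider pathway was read from gene lists, and in neither tissue did a listed gene pass the adjusted threshold. Of the other ligands, Il33, an alarmin released from damaged cells, was the only one tested in CA1, at 13.7 ± 2.23 FPKM in TBI and 13.9 ± 1.03 in sham. It was thus well above Il1a, Il1b and Il18 in that tissue. In WBC the only one tested was Il36b (1.23 ± 0.774 in TBI, 1.81 ± 0.381 in sham; log2 -0.52, limma adjusted p = 0.407). Among the receptors, Il1rap, the co-receptor that IL-1R1 needs for signalling, measured 18.7 ± 3.28 in CA1 TBI and 20.3 ± 2.02 in CA1 sham. In WBC it measured 4.77 ± 0.746 in TBI and 5.59 ± 1.22 in sham. The synaptic relative Il1rapl1 stood at 1.85 FPKM in CA1 TBI and 1.87 in CA1 sham. Il18r1, the ligand-binding chain of the IL-18 receptor, stood at 4.04 ± 0.955 in WBC TBI and 3.37 ± 0.792 in WBC sham.

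Receptor signalling genes, from the adaptor Myd88 to NF-κB, leaned to one side in CA1 by small amounts. Of 14 tested there 12 lay below 0, where 53.3% of all CA1 rows did. All 14 were measured in the same libraries, so they are not independent. The median of the list was -0.043 against -0.0090 over all rows, and no gene in it had an unadjusted p under 0.05. Nearest were Ikbkg, the regulatory subunit of the IκB kinase (1.40 ± 0.161 in TBI, 1.74 ± 0.188 in sham; log2 -0.23, limma adjusted p = 0.891), and Rela, the p65 subunit of NF-κB (log2 -0.11). In WBC 15 were tested, 7 above 0 and 8 below. Irak1, the kinase recruited by MYD88, was the only 1 of the 15 at an unadjusted p under 0.05. It was lower in TBI, where 12.5% of all WBC rows were at that p. It measured 54.0 ± 11.0 FPKM in TBI, with a range of 38.4 to 61.9, and 87.7 in sham, with a range of 71.3 to 103. The groups did not overlap, which with TBI lower held for 8.63% of all WBC rows. The log2 difference of -0.71 ± 0.18 did not pass (limma adjusted p = 0.132). Tab2, a scaffold of the TAK1 kinase, was at 50.1 ± 3.53 in TBI and 55.6 ± 2.56 in sham (limma adjusted p = 0.297).

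Of the other inflammasome genes 6 were tested in CA1, 5 below 0 and 1 above, none at an unadjusted p under 0.05. The one above was Txnip, a thioredoxin-binding protein that can engage NLRP3, at 15.8 ± 5.05 FPKM in TBI and 12.1 ± 1.48 in sham (limma adjusted p = 0.891). Gsdmd, the pore-forming protein cut by caspase-1, was at 2.98 ± 0.339 in TBI and 3.24 ± 0.285 in sham. In WBC 11 were tested, 5 above 0 and 6 below, and 2 were lower at an unadjusted p under 0.05, where 12.5% of all WBC rows were. Panx1, a membrane channel for ATP release, measured 6.67 ± 0.520 in TBI and 10.4 ± 4.18 in sham, with separate groups (log2 -0.53, limma adjusted p = 0.231). Separate groups with TBI lower were found in 8.63% of all WBC rows. Brcc3, a deubiquitinase that acts on NLRP3, measured 9.28 ± 1.28 in TBI and 11.5 ± 1.39 in sham (limma adjusted p = 0.236).

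Of the relatives of Nlrx1, 1 was tested in CA1 and 3 in WBC, and none had an unadjusted p under 0.05. Nod1, a sensor of bacterial peptidoglycan, was at 1.61 ± 0.134 in CA1 TBI and 1.74 ± 0.221 in CA1 sham, and at 8.34 ± 2.09 in WBC TBI and 7.47 ± 0.900 in WBC sham. Ciita, the transactivator of class II MHC genes, was at 28.8 ± 8.35 in WBC TBI and 30.9 ± 3.16 in WBC sham. Their differences from that of Nlrx1 were not tested.

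Of the genes that NF-κB and IL-1 induce, 5 were tested in CA1 and none had an unadjusted p under 0.05. Vcam1, an endothelial adhesion molecule, was at 12.5 ± 1.68 in TBI and 13.8 ± 1.60 in sham, and Sod2, the mitochondrial superoxide dismutase, at 68.6 ± 2.62 in TBI and 71.5 ± 3.45 in sham. Il6, Tnf, Cxcl1 and Ccl2 lay under the filter there, and Cxcl2 was at 0 in every CA1 library. In WBC 9 were tested, 7 above 0 and 2 below, with a median of 0.14. Socs3, a feedback inhibitor of cytokine signalling, measured 20.7 ± 2.30 FPKM in TBI and 15.6 ± 2.86 in sham (log2 0.41 ± 0.15, limma adjusted p = 0.178). Its TBI libraries lay above all sham libraries, as did those of 5.61% of all WBC rows. Tnf was at 190 ± 11.0 in TBI and 162 ± 34.8 in sham (limma adjusted p = 0.389).

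**Figure D5:**
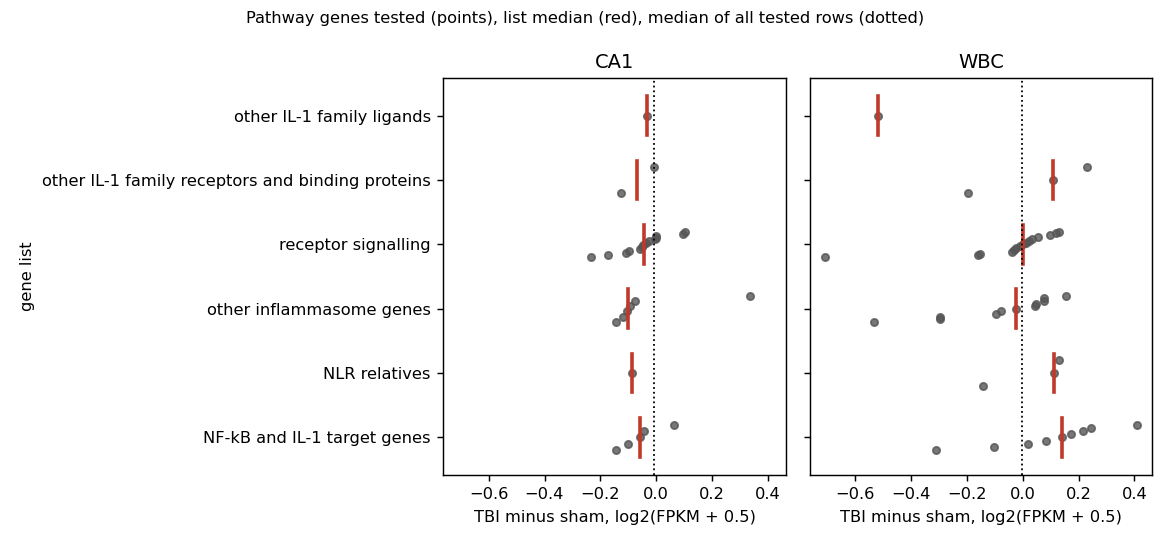
TBI minus sham on the log2(FPKM + 0.5) scale for each tested gene of the 6 pathway lists, CA1 left and WBC right. Points are genes, the red bar is the list's median and the dotted line the median of all tested rows. CA1 points crowd near 0, and in WBC the lowest signalling gene is Irak1, at -0.71, and the highest target gene Socs3, at 0.41.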

How the data were processed

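Poly-A RNA-seq libraries of CA1 and white blood cells were analysed, 16 in all. The authors deposited FPKM, 1 table for each tissue, with a status code beside each value. Per the submitters' processing notes the authors used TopHat, TopHat2, Bowtie, Bowtie2, Cufflinks and Cuffdiff with the rat build rn5; their versions, the annotation and the scaling of library size were not given in the sources used here. The 2 tables were normalized separately.

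Analyses used log2(FPKM + 0.5). Rows with a mean of at least 1 FPKM over the 8 libraries of a tissue and every status OK were tested, which left out 96 CA1 and 15 WBC rows for their status. TBI was compared with sham by limma 3.58.1 (trend, 2-sided, Benjamini-Hochberg over all tested rows, threshold 0.05) in R 4.3.3, tested on simulated data. The injury effect was compared between tissues by an interaction term, with a mean for each tissue. Single members and ratios were also compared by exact permutation over libraries (scipy 1.17.1). For members under the filter, limma without a filter gave the difference. Groups came from the labels; samples were not paired. The depth of each library is unknown, so no counting interval is given.

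Named genes are the 10 members, the genes of each pathway list past the threshold or otherwise the 2 with the smallest p per tissue, and the 3 genes most like the most variable member. Likeness is the root mean square distance between log2 values centred on each gene's mean over the 8 libraries. Il6, Cxcl1, Cxcl2, Ccl2, Myd88 and the markers named singly (Ca2, Rbfox3, Gzmb, C1qa, C1qb, C1qc, Tyrobp, Cx3cr1, Csf3r, Elane and Ltf) lie outside that rule, and were named after their values were seen. The members and lists were chosen with earlier results of these data known. Promoters are from RefSeq, build GRCr8, and expression values keep no coordinates. The alternatives were quantile or median-ratio normalization, a pseudocount of 0.1 or 1, a 5 FPKM minimum or none, limma with sample weights, robust variances or no trend, a replicate block, rows of every status, an adjusted p of 0.1, summed rows of a symbol, and leaving out each library. Python 3.11.15, numpy 2.4.6, pandas 2.3.3 and matplotlib 3.10.9 were used.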

Additional observations from a re-analysis of the deposited data

Results flagged for a closer look

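In groups of 4, a library was looked at again where its gap to the nearest of the others took up most of the group's range (Dixon's 95% limit). This held in 4 of 48 groups checked, and chance gives about 1 in 20. Il1r2 in CA1 TBI was 0.0448 FPKM in replicate 3 and listed at 0 in the other 3 libraries. The Il1r2 to Il1r1 log2 ratio in CA1 sham was -2.19 in replicate 1, the library with the highest Il1r1. Casp1 in WBC TBI was 39.1 FPKM in replicate 4, against 31.6 to 32.5 in the other 3. Nlrp3 in WBC sham was 7.62 FPKM in replicate 2, the sham library with the highest neutrophil marker sum, 1397 FPKM, and the others held 3.68 to 4.28. The part of the neutrophil markers in that value was not tested.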

How the results depend on the processing

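No member was called in CA1, WBC or between tissues among the tested members, under any alternative run. Nlrx1 kept its direction in all of them, at -0.35 to -0.25 in CA1 (lowest limma adjusted p 0.318) and -0.66 to -0.47 in WBC (0.129), as did Il1r1 in CA1, at -0.34 to -0.20 (0.343). Counts of all rows called moved more. In CA1 the count was 1, and 3 without trend, with sample weights or at an adjusted p of 0.1. Leaving out 1 library gave 1 to 2, with 2 without sham 1, sham 2, TBI 1 or TBI 3. In WBC it was 0, with 2 for rows of every status, 1 at an adjusted p of 0.1 and 0 to 4 leaving out 1 library (4 without TBI 2, 1 without sham 2). Between tissues it was 31, and 13 without a filter, 20 at a minimum of 5 FPKM, 281 with sample weights and 329 at an adjusted p of 0.1. Leaving out 1 library gave 6 to 222, the highest without WBC TBI 3 and the lowest without CA1 TBI 4.

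Signs turned for values near 0. With sample weights Il1a was -0.051 in CA1, 0.0084 in WBC and 0.074 between tissues, Casp1 0.076 in CA1 and Nlrp3 0.074 in WBC. With a pseudocount of 0.1 Il1a was -0.072 in CA1 and 0.034 between tissues. With quantile normalization Casp1 was 0.026 and Pycard 0.18 in WBC, and Casp1 0.041 between tissues. Leaving out 1 library gave ranges across 0 in CA1 for Il1a (-0.074 to 0.11), Il1b (-0.12 to 0.011), Il1rn (-0.040 to 0.13) and Casp1 (-0.11 to 0.12). In WBC it did so for Il1a (-0.047 to 0.024), Nlrp3 (-0.23 to 0.16) and the Il1rn to Il1b ratio (-0.11 to 0.34). Between tissues it did for Il1a (-0.12 to 0.066), Il1b (-0.49 to 0.044) and Nlrp3 (-0.13 to 0.25). The CA1 Il1r2 to Il1r1 difference was 0.18 with a pseudocount of 0.1 (exact permutation p = 0.543) and 0.15 to 0.27 leaving out 1 library (0.0286 to 0.0571). Without a change of sign, leaving out 1 library gave 0.099 to 0.25 for Il18 in CA1, and in WBC -0.24 to -0.088 for Il1rn, -0.23 to -0.010 for Pycard and -0.18 to -0.060 for Casp1. The causes were not tested.

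Whether equal sample numbers pair the samples was not settled. The correlation of same-numbered deviations from the group means was 0.21, 0.02, 0.05 and 0.24 in CA1 and 0.15, -0.00, 0.02 and -0.01 in WBC. Pairs of unequal numbers ran from -0.16 to 0.11 in CA1 and from -0.13 to 0.10 in WBC. With the sample numbers as a replicate block, rows called were 1 in CA1, 0 in WBC and 214 between tissues. Members at an unadjusted p under 0.05 became 1 in CA1 (Nlrx1) and 2 in WBC (Nlrx1 and Il1r2). Il1r1 in CA1 kept its difference of -0.26, as the block does not alter it, and its SE became 0.119. The CA1 Il1r2 to Il1r1 difference stayed 0.23, at the smallest exact permutation p that 4 pairs allow, which does not reach the threshold. Il1r2, under the filter, passed between tissues in that fit (-0.50, limma adjusted p = 0.0401). FPKM without counts limits all values near 0.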
